A study of Mus musculus with 4 samples.

Results

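The 10 genes described here encode proteins that set how long cytokine mRNAs last in a cell. They are the regnase genes Zc3h12a, Zc3h12c and Zc3h12d, the roquin genes Rc3h1 and Rc3h2, the tristetraprolin (TTP) family genes Zfp36, Zfp36l1 and Zfp36l2, the gene of the RNA-binding protein HuR, Elavl1, and the ribonuclease gene N4bp1. The 10 were listed by name, and all were found among the 50600 genes of the deposited tables. RNA-seq had been run on 4 libraries of mouse Th17 cells, a helper T cell type that makes IL-17, and the labels describe primary cells of the strain C57BL/6NJ that came from a differentiation of CD4+ T cells. The labels name no treatment, allele or knockdown, give the age as unknown and the sex as not collected, and assign the 4 libraries to 1 donor entry. There was 1 group and no control, so levels were described and set against each other and against all genes.

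The 3′ untranslated regions (3′ UTRs) of many cytokine mRNAs carry short elements that mark them for rapid decay. AU-rich elements are bound by the TTP family, which recruits the CCR4-NOT deadenylase complex to shorten the poly(A) tail, whereas HuR binds similar U-rich and AU-rich stretches and is known for keeping such mRNAs stable. Short hairpins with a pyrimidine-purine-pyrimidine loop are bound by the roquins, which also recruit CCR4-NOT, and by Regnase-1, the product of Zc3h12a, an endoribonuclease that works with the helicase UPF1. In T cells the protease MALT1 is known to cleave Regnase-1, the roquins and N4BP1 after antigen receptor stimulation, and kinases downstream of p38 are known to inactivate TTP.

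The elements themselves are shown here because the decay regulators act through them and because several regulators carry them in their own mRNAs. Each run of 30 bases is read 5′ to 3′ on the transcript strand from 1 annotated coding transcript per gene (GENCODE M21, GRCm38/mm10), and capitals mark the AU-rich nonamer TTATTTATT, written with T for U. The TTP family sites come from the 3 genes of that family described here. The HuR site comes from the start of a cluster of copies, and the last 3 from targets that these cells also expressed.
Zfp36, chr7:28376950-28376979, minus strand: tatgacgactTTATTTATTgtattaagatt
Zfp36l1, chr12:80108166-80108195, minus strand: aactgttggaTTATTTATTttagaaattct
Zfp36l2, chr17:84184913-84184942, minus strand: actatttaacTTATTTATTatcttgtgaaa
Elavl1, chr8:4285787-4285816, minus strand: gtcatgaaaaTTATTTATTtatttatttat
Tnf, chr17:35199688-35199717, minus strand: tttgcacttaTTATTTATTatttatttatt
Il2, chr3:37120897-37120926, minus strand: ttatctgaaaTTATTTATTatattgaattg
Csf2, chr11:54247328-54247357, minus strand: ttttaaatatTTATTTATTtatttatttat

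The nonamer was present once in the 3′ UTR of each TTP family gene among the 10, of Rc3h1 and of Rc3h2. In that of Elavl1 it was present in 8 copies, close together and mostly overlapping. The nonamer was absent from the 3′ UTRs of the 3 regnase genes among the 10 and of N4bp1. Among the 20665 annotated 3′ UTRs of coding genes, 7.14% held at least 1 copy. A longer region holds more matches by length alone, so each region was also set against those within 20% of its length: 4.17% of regions as long as that of Zfp36 (774 bases) held a copy, 9.88% for Zfp36l1 (1835 bases), 9.85% for Zfp36l2 (1822 bases) and 18.3% for Elavl1 (4218 bases). For the longer regions of Rc3h1 (7181 bases) and Rc3h2 (5160 bases) the shares were 27.9% and 22.6%. Of the targets, Tnf held 5 copies and Csf2 held 4, all overlapping within each gene, and Il2 held 1. Of the 10 reported TTP family targets, 4 held the nonamer and 6 did not, Il17a and Ifng among the latter. Of the 14 reported Regnase-1 and roquin targets, 4 held it, with Il2 and Tnf on both lists. It was held by 3 of the 72 other pathway genes with an annotated 3′ UTR that are neither listed targets nor among the 10 regulators. The cell type markers Cd4 and Ncr1, which are on no target list, held 1 copy each. These counts of genes were not adjusted for length. The shorter pentamer ATTTA, which lies within the nonamer, occurred 3 times in Zfp36, 9 times in Zfp36l1 and 5 times in Zfp36l2. Regions of like length had medians of 1, 3 and 3. Rc3h2 held 25, Rc3h1 20, Elavl1 17 and Zc3h12c 14, beside medians of 9, 13, 7 and 7. Zc3h12a and N4bp1 held 3 each and Zc3h12d 2, beside 1, 6 and 4. The 6 reported TTP family targets without the nonamer held from 5 (Ier3 and Ccl3) to 7 (Il17a), beside medians of 0 or 1. Absence of the nonamer is therefore not absence of shorter AU-rich runs.

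Hairpins were searched as 5 perfect Watson-Crick pairs around a loop of 3 bases, pyrimidine-purine-pyrimidine, on the transcript strand. Capitals mark the stem and its loop. The roquin genes are shown beside 3 mRNAs reported as roquin or Regnase-1 targets, and Zc3h12a is shown with its 3 matches.
Tnf, chr17:35199577-35199606, minus strand: cagacatgTTTTCTGTGAAAAcggagctga
Nfkbid, chr7:30428395-30428424, plus strand: tctaggtgATTTCTGTGAAATcgagcccac
Icos, chr1:60999479-60999508, plus strand: agaacaaaATTTCTGTGAAATaaaatctgg
Rc3h1, chr1:160971653-160971682, plus strand: agccaataACTTCTGTGAAGTtgccttttc
Rc3h2, chr2:37373801-37373830, minus strand: tttaattaACTTCTGTGAAGTtgtttactc
Zc3h12a, chr4:125119061-125119090, minus strand: ccctgttgATACACATTGTATctctgtcat
Zc3h12a, chr4:125118879-125118908, minus strand: gctagttaGGCACCATGTGCCtgctctctg
Zc3h12a, chr4:125118655-125118684, minus strand: ggcgagatTTAAATATTTTAAatgaaaaag

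Rc3h1 and Rc3h2 held the same 13-base hairpin, ACTTCTGTGAAGT, which was found in 6 of the 20665 3′ UTRs, and they also shared an AT-only hairpin found in 58. Icos and Nfkbid shared ATTTCTGTGAAAT, which was found in 12. The hairpins shown for Tnf, Nfkbid, Icos and both roquin genes have the same inner 9 bases, TTCTGTGAA, a run present in 450 (2.18%) of all 3′ UTRs. Each was picked from several matches of its gene, while all matches of Zc3h12a are shown. In all, Tnf and Nfkbid held 2 matches each and Icos held 3. The matches not shown lack this run in Tnf, Icos and both roquin genes, and hold it in Nfkbid. The run was also present in Ier3, and in Arid5a and Cd8a, which are on no target list. The 3 matches of Zc3h12a have other stems, and their loops are CAT in 2 and TAT in 1. At least 1 hairpin was found in 19.8% of all 3′ UTRs and in 16.0% of those as long as that of Zc3h12a (856 bases). The shares were 70.6% at the length of Rc3h1, which held 4 matches, 61.1% at that of Rc3h2, which held 2, and 51.6% at that of Zc3h12c, which held 1. The matches of Rc3h1 that start at bases 2002 and 2005 of its 3′ UTR overlap in an AT-only stretch, so they are not separate sites. No hairpin of this form was found in the 3′ UTRs of the TTP family, Elavl1, Zc3h12d or N4bp1. Of the 14 reported Regnase-1 and roquin targets, 10 held at least 1 and 4 (Il2, Il6, Il12b and Il1b) held none, beside 17 of the 72 other pathway genes. These counts were not adjusted for length, and the T cell markers Cd4 and Cd3d, which are on no target list, also held matches. Hairpins with a mismatch, a bulge, a G-U pair or another loop length were not searched. A region without a match, such as that of Il6, may still hold such a hairpin. A match is a run of letters in an annotated region, and the libraries carry no measurement of binding or decay.

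**Figure D1:**
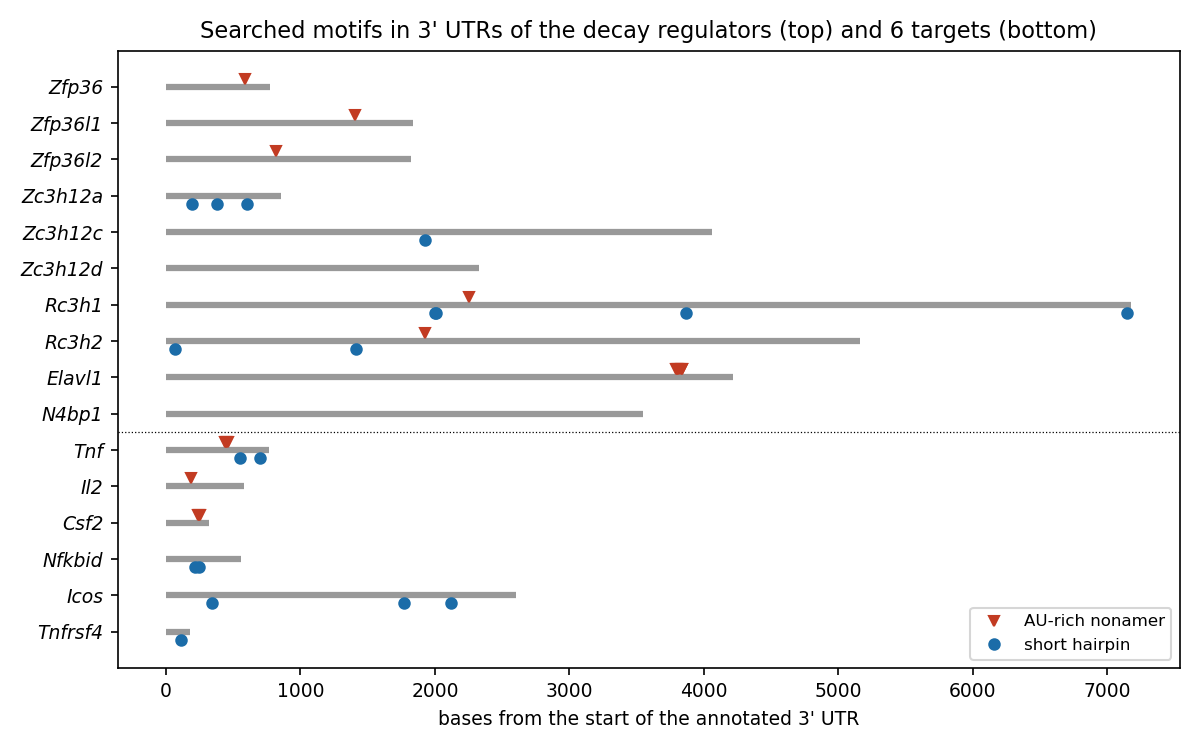
Positions of the searched motifs along the annotated 3′ UTR of the 10 decay regulators (above the dotted line) and 6 target genes (below it). The horizontal axis gives bases from the start of the 3′ UTR, grey bars the length of each region, red triangles AU-rich nonamers and blue circles short hairpins. The 8 nonamers of Elavl1 lie together near the end of its 3′ UTR.

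The libraries held from 19332509 (replicate 2) to 48558772 (replicate 4) assigned read pairs, and 98.7% to 98.9% of these fell on protein-coding genes. Levels are given as TPM, the count of a gene divided by its merged exon length and scaled so that all libraries have the same total. Levels were tested against 1 TPM with edgeR's quasi-likelihood test at an adjusted p threshold of 0.05, and a gene is called above or below 1 TPM where it passed. The T cell markers tested were above 1 TPM in 4 of 4, and the Th17 genes Il17a, Il17f, Il23r, Ccr6 and Rora in 5 of 5. The 4 B cell, 5 macrophage and 3 neutrophil markers were all below 1 TPM, with a summed level of at most 0.991, 0.326 and 0.0227 TPM in any library. Lyz2, Csf1r, S100a8 and S100a9 had no count. Of the CD8 T and NK markers, Cd8b1 (14.4 ± 1.4 TPM, SD, n = 4) and Nkg7 were above 1 TPM, while Cd8a was below it and Klrb1c and Ncr1 had no count. The libraries fell into pairs by sex-linked genes: Ddx3y, on the Y chromosome, stood at 77.8 and 58.9 TPM in replicates 1 and 2 and at 0.240 and 0.0925 TPM in replicates 3 and 4, and Xist stood at 0.916, 1.01, 154 and 152 TPM in replicates 1 to 4. This split goes against the single donor entry in the labels, which do not say whether the libraries came from separate animals. The p-values therefore concern these 4 libraries and not a known number of animals. Those of the level and variation tests also borrow dispersion from other genes, so they do not rest on the spread of 4 values alone.

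All 10 decay regulators were expressed above 1 TPM, against 45.9% of the 21764 protein-coding genes. The 10 were chosen with earlier results of these data known, so this count is a description only. The largest adjusted p of the 10 in edgeR's quasi-likelihood test was 7e-170, for Zc3h12c. Its size depends on the test: limma on log2(TPM + 0.1) gave an adjusted p of 8.45e-05 for the same gene. The counts behind these levels ran from 147, for Zc3h12c in replicate 2, to 12783, for Zc3h12d in replicate 4. Their median was 61.6 TPM, beside 0.411 TPM over all protein-coding genes and 32.5 TPM over the 9986 genes above 1 TPM. The 10 remained above 1 TPM without replicates 1 and 2, and also without replicates 3 and 4. The levels are of mRNA and say nothing of the amount or activity of the proteins.

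**Figure D2:**
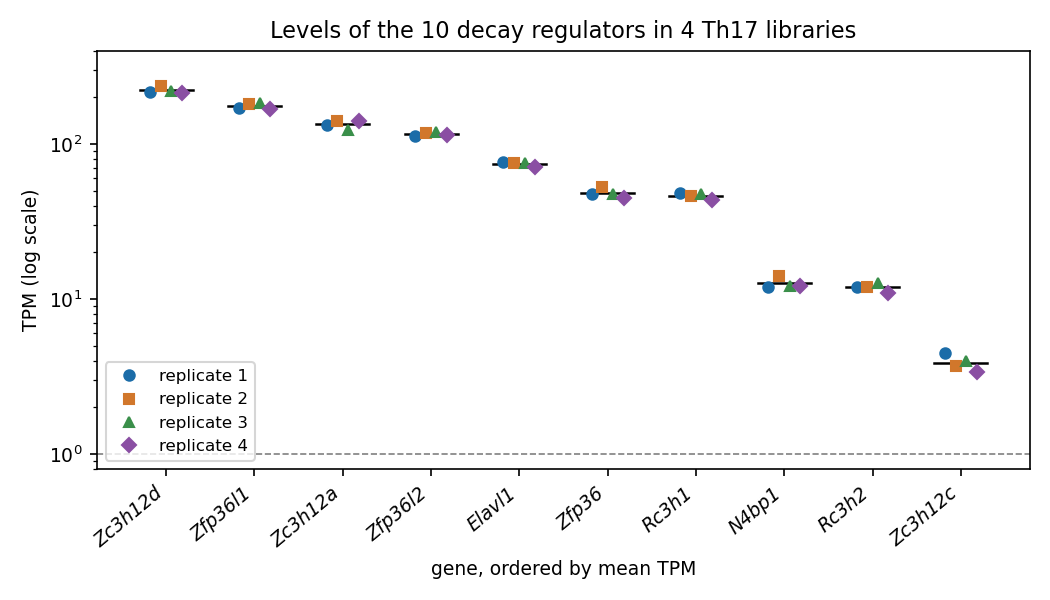
Levels of the 10 decay regulators in TPM on a log scale, 1 point per library, with a black bar at the mean and a dashed line at 1 TPM. The genes run from Zc3h12d (mean 221.8 TPM) to Zc3h12c (mean 3.88 TPM), and the points of each gene lie close together beside the distance between most genes.

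The regnase genes stood at both ends of the order. Zc3h12d (Regnase-4, ENSMUSG00000039981, chr10:7832470-7870396) was the highest of the 10, at 216, 238, 218 and 215 TPM in replicates 1 to 4, with a mean of 221.8 ± 11.2 TPM (SD, n = 4) and rank 823 among protein-coding genes. Replicate 2 was the high library, and the other 3 lay close together. Zc3h12a (Regnase-1, ENSMUSG00000042677, chr4:125118423-125127840) was at 132, 140.4, 124 and 139.8 TPM, with a mean of 134.1 ± 7.84 TPM. Replicate 3 was its low library. Zc3h12c (Regnase-3, ENSMUSG00000035164, chr9:52111344-52168572), best known from myeloid cells, was the lowest of the 10, at 4.49, 3.71, 3.96 and 3.36 TPM, with a mean of 3.88 ± 0.473 TPM. Zc3h12a was lower than Zc3h12d in 4 of 4 libraries, by 0.72 ± 0.09 on the log2(TPM + 1) scale, at a ratio of means of 0.605. Zc3h12a exceeded Zc3h12c by 4.79 ± 0.20 on the same scale, a 34.6-fold ratio of means, again in 4 of 4 libraries. Zc3h12d exceeded Zc3h12c by 5.52 ± 0.17, a 57.2-fold ratio. Of the summed TPM of these 3 genes, Zc3h12d held 61.6 ± 1.38%, Zc3h12a 37.3 ± 1.42% and Zc3h12c 1.08 ± 0.155%.

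In the TTP family, Zfp36l1 and Zfp36l2 were both expressed above Zfp36, the gene of TTP itself. Zfp36l1 (ENSMUSG00000021127, chr12:80107754-80113013), which encodes an AU-rich element binder known for restraining lymphocyte proliferation, was at 171, 180.4, 183 and 168 TPM in replicates 1 to 4, with a mean of 175.8 ± 6.94 TPM. Replicates 2 and 3 were its higher libraries. Zfp36l2 (ENSMUSG00000045817, chr17:84183931-84187947), which is known to hold cytokine mRNAs silent in resting T cells, was at 113, 119, 119 and 115 TPM, with a mean of 116.5 ± 3.14 TPM, and had the smallest spread of the 10 relative to its level. Zfp36 (TTP, ENSMUSG00000044786, chr7:28376784-28380253), an immediate early gene whose protein destabilizes Tnf and other cytokine mRNAs, was at 47.9, 53.1, 47.5 and 44.7 TPM, with a mean of 48.3 ± 3.49 TPM. Replicate 2 was high and replicate 4 low. The ranges of the 3 genes did not overlap. Zfp36l1 was 3.64-fold and Zfp36l2 2.41-fold higher than Zfp36, with differences of 1.84 ± 0.08 and 1.25 ± 0.09 on the log2(TPM + 1) scale, and Zfp36l1 was 1.51-fold higher than Zfp36l2 (0.59 ± 0.03). All 3 differences held in 4 of 4 libraries. Zfp36l1 held 51.6 ± 0.490% of the family's summed TPM, Zfp36l2 34.2 ± 0.614% and Zfp36 14.2 ± 0.716%. An annotated non-coding RNA, Gm26669, covers the Zfp36l1 locus on the other strand. The deposited counts are strand-specific and gave it no count in the 4 libraries.

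The roquin genes encode E3 ligase-like RNA binders with overlapping roles in T cells. Rc3h1 (roquin-1, ENSMUSG00000040423, chr1:160906418-160974978) was at 48.6, 46.1, 47.6 and 43.8 TPM, with a mean of 46.5 ± 2.09 TPM. Rc3h2 (roquin-2, ENSMUSG00000075376, chr2:37370069-37422903) was at 11.9, 12.1, 12.7 and 11.0 TPM, with a mean of 11.9 ± 0.688 TPM. Replicate 4 was the low library for both, and their ranges were far apart. Rc3h1 exceeded Rc3h2 by 1.88 ± 0.05 on the log2(TPM + 1) scale in 4 of 4 libraries, a 3.90-fold ratio of means, and held 79.6 ± 0.623% of their sum. The size of that ratio depended on exon length: the merged exons of Rc3h2 span 19624 bases and its principal transcript 8799, and with 1 transcript length per gene Rc3h1 held 64.3%.

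Across the 3 families, 7 pairs of paralogs were compared within libraries with a two-sided exact sign-flip permutation test. In this exact test each pair gave p = 0.125, and 0.125 after Benjamini-Hochberg adjustment, which is the smallest value 4 libraries allow, so no pair could pass 0.05 by that test. Each of the 7 differences kept its sign with 1 transcript length per gene.

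**Figure D3:**
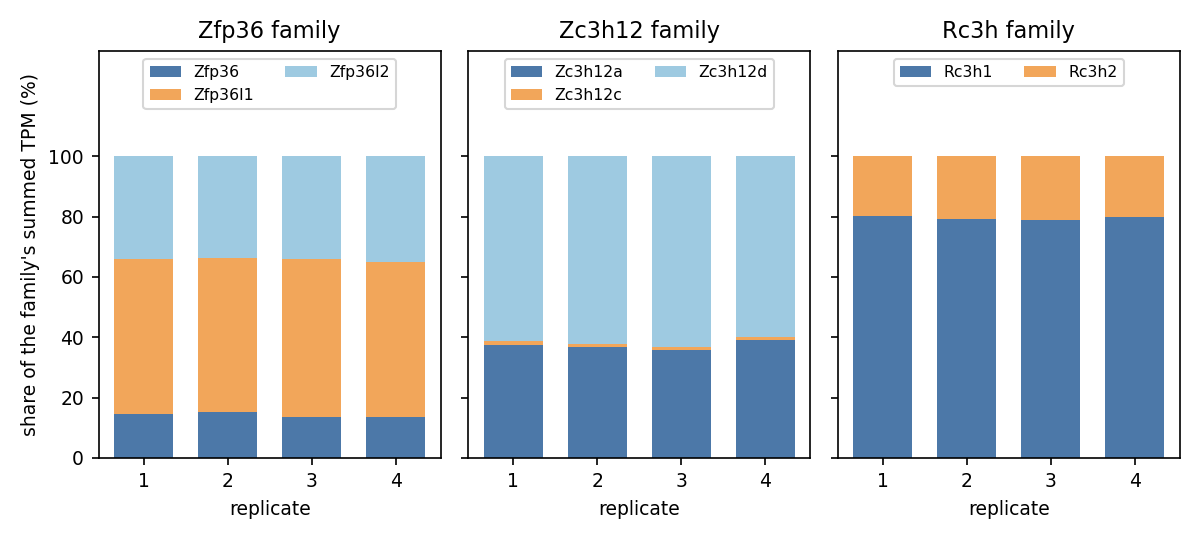
Share of each paralog in the summed TPM of its family, in percent, as stacked bars for replicates 1 to 4. In each library Zfp36l1 is the largest share of the Zfp36 family, Zc3h12d of the Zc3h12 family and Rc3h1 of the Rc3h family.

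Elavl1 and N4bp1 belong to none of these families. Elavl1 (HuR, ENSMUSG00000040028, chr8:4285382-4325413), the known counterweight to the TTP family on AU-rich elements, was at 77.0, 75.1, 75.8 and 71.4 TPM, with a mean of 74.8 ± 2.41 TPM. It lay between Zfp36l2 and Zfp36 with no overlap on either side. N4bp1 (ENSMUSG00000031652, chr8:86808160-86885258), which encodes a ribonuclease known for restraining NF-κB-driven cytokine production, was at 12.03, 14.1, 12.2 and 12.1 TPM, with a mean of 12.6 ± 1.01 TPM. Replicate 2 stood above the other 3, which lay close together.

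Along the order of mean levels, 7 of the 9 neighbouring pairs had ranges over libraries that did not overlap. The exceptions were Zfp36 and Rc3h1, at a ratio of means of 1.04, where Zfp36 was higher in 2 of 4 libraries, and N4bp1 and Rc3h2, at a ratio of 1.06, where N4bp1 was higher in 3 of 4. The smallest gap without overlap was that of Zc3h12a over Zfp36l2, at 1.15-fold. With 1 transcript length per gene, a choice made after the data were seen, the order changed at 2 places: Elavl1 (93.4 TPM) came before Zfp36l2 (80.6 TPM), and Rc3h2 (18.4 TPM) before N4bp1 (16.5 TPM). That change of length moved the median of the genes above 1 TPM by -0.18 on the log2 scale.

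None of the 10 genes passed a test for variation between the libraries beyond the trend for their level. In this deviance test at edgeR's trended dispersion, 0 of 10 passed an adjusted p of 0.05, beside 48 of all 12849 genes tested (0.374%). With so small a share over all genes, a count of 0 among 10 does not set the members apart. The smallest unadjusted p was 0.118, for Zc3h12a, with an adjusted p of 1.00 in edgeR. Counts of 0 were also obtained with DESeq2 size factors, with a common dispersion, without the count filter and without each library in turn, where the smallest unadjusted p reached 0.0634 without replicate 1. A p that misses the threshold does not show that levels were equal.

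The coefficient of variation, the SD over the 4 libraries as a percent of the mean, ran from 2.69% for Zfp36l2 to 12.2% for Zc3h12c, with a median of 5.40% beside 4.94% over all genes above 1 TPM. Compared with genes within 1.5-fold of the same level, Zc3h12a (5.84%) stood above the median of 3.50%, and 87.2% of those genes varied less. Zfp36 (7.23%) stood above a median of 4.25%, with 86.3% of genes varying less, and Zc3h12d (5.03%) above 3.30%, with 83.5%. Zfp36l2 lay on the other side, at 2.69% beside a median of 3.56%, and Elavl1 likewise at 3.22% beside 3.86%. In all, 7 of the 10 genes lay above the median of their own level and 3 below. These positions are descriptions of 4 libraries. Replicate 4, the deepest library, was the lowest of the 4 for 7 of the 10 genes, beside 27.5% of genes above 1 TPM, and was the highest for 0. Replicate 2, the shallowest, was the highest for 4, beside 24.4% of genes. Replicate 2 was also the lowest library for 4 of the 5 Th17 markers, beside 28.5% of genes above 1 TPM. For Il17a the margin was small, at 40.7 TPM in replicate 2 and 41.2 TPM in replicate 3. Il17f was at 557, 391, 501 and 521 TPM in replicates 1 to 4, with an adjusted p of 0.0376 in the same edgeR-based variation test, and Ccr6 was at 22.1, 15.5, 20.4 and 26.1 TPM, with an adjusted p of 0.275. The part of depth and of the Th17 markers in the members' pattern was not tested.

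**Figure D4:**
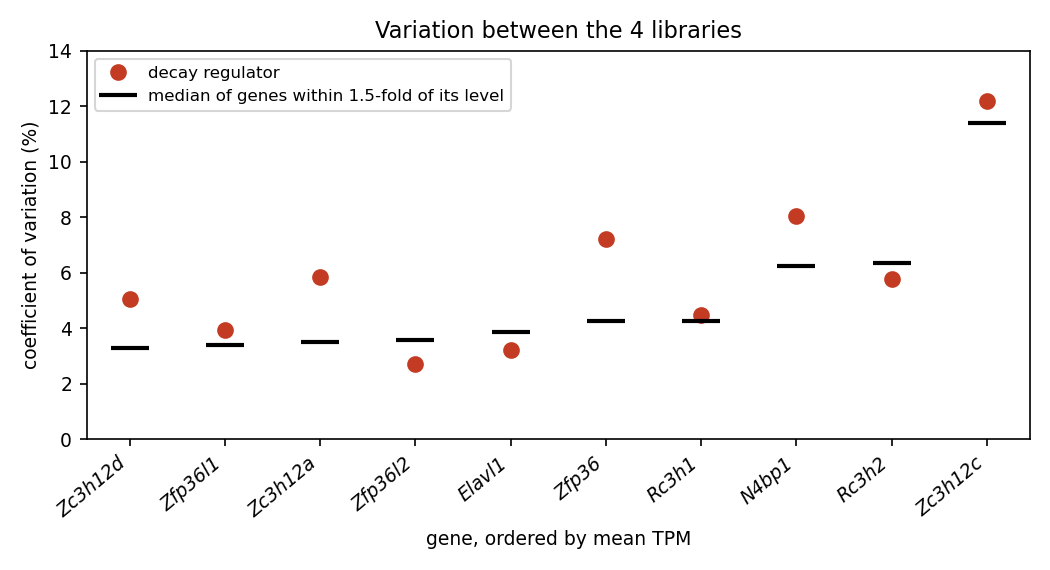
Coefficient of variation over the 4 libraries, in percent, for each decay regulator (red points) and the median for genes within 1.5-fold of its level (black bars), with genes ordered by mean TPM. Of the 10 genes, 7 lie above their bars and 3 (Zfp36l2, Elavl1 and Rc3h2) below.

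The protein-coding genes whose deviations over the 4 libraries were nearest to those of Zc3h12a were Rfx3, Cope and Gpank1, with root mean square differences of 0.0039, 0.0053 and 0.0073 on the log2(TPM + 1) scale. Of 10193 genes compared, 732 lay within 0.05 on that scale. Zc3h12a had not passed the variation test and its own deviations were small. Such nearness over 4 libraries therefore does not show a shared pattern.

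Close relatives of the decay regulators were largely unexpressed. Of 7 further paralogs, 1 was above 1 TPM, 5 were below and 1 passed in neither direction. Khnyn, a relative of N4bp1 that encodes a ribonuclease cofactor of the antiviral protein ZAP, was above, at 37.2, 37.3, 31.4 and 31.7 TPM in replicates 1 to 4. It was higher in replicates 1 and 2 than in replicates 3 and 4, the same division as for the sex-linked genes, and their part in it was not tested. Zc3h12b, the remaining regnase gene, was at 0.942 ± 0.119 TPM and could not be told from 1 TPM. Elavl3 (0.0458 ± 0.0354 TPM), Zfp36l3 (2 counts, all in replicate 1) and Nynrin (1 count, in replicate 3) were below 1 TPM. The neuronal HuR relatives Elavl2 and Elavl4 had no count, which allows at most 0.0084 and 0.013 TPM at 3 counts over the 4 libraries, for counting error only. The median of the 7 was 0.0175 TPM, beside 61.6 TPM for the 10 decay regulators.

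The machinery that the decay regulators recruit was present. All 10 CCR4-NOT genes were above 1 TPM, with a median of 87.3 TPM, from Cnot6l, a catalytic deadenylase subunit (48.8 ± 1.38 TPM), to Cnot9, a subunit that docks RNA-binding proteins (184.7 ± 9.24 TPM). Cnot9 was at 198, 182, 179 and 179.9 TPM, with replicate 1 the high library. The 3 other deadenylase genes were also above, from Pan3 (15.4 ± 1.29 TPM) to Parn (99.7 ± 1.42 TPM). All 9 genes of decapping and 5′ decay passed, with a median of 71.1 TPM. Ddx6, the helicase that links CCR4-NOT to decapping, led them at 154.2 ± 5.04 TPM, and Dcp1b was the lowest, at 5.61 ± 0.916 TPM.

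Of 15 exosome and SKI genes, which degrade mRNA from the 3′ end, 14 were above 1 TPM and 1 was below, with a median of 81.8 TPM and Exosc3 at the top (257.1 ± 6.18 TPM). Exosc6 was listed at 0 in all 4 libraries. All of its annotated exon bases lie within exons of Aars on the same strand, so its level cannot be read from these counts. The 10 genes of UPF1 and its SMG partners were all above 1 TPM, with a median of 53.5 TPM, from Upf3a (20.8 ± 1.18 TPM) to Upf1 itself (188.5 ± 4.03 TPM), the helicase that Regnase-1 requires.

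Genes for proteases and kinases that act on the decay regulators were above 1 TPM in 10 of 10, with a median of 91.9 TPM. Mapkapk2, the p38-activated kinase that phosphorylates TTP, was the highest at 306.5 ± 10.9 TPM, and Btrc, the F-box protein that takes part in the degradation of Regnase-1, the lowest at 11.9 ± 0.386 TPM. Malt1, named here after its values were seen, was at 225, 248, 254 and 223 TPM, with replicates 2 and 3 higher. Of 9 other proteins that bind the same elements or cytokine mRNAs, all 9 were above 1 TPM, with a median of 118 TPM, from the splicing and stress granule protein Tia1 (9.92 ± 0.568 TPM) to the decay factor Khsrp (292.2 ± 7.05 TPM).

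mRNAs reported as targets ranged far more widely than the regulators. Of 14 reported Regnase-1 and roquin targets, 11 were above 1 TPM and 3 below, with a median of 304 TPM. Il2, the T cell growth factor, led at 6137, 5701, 5310 and 5804 TPM in replicates 1 to 4, with replicate 1 high and replicate 3 low. Il12b and Il1b, cytokines mainly of myeloid cells, had no count, and Il6 was at 0.213 ± 0.109 TPM. Of 10 reported TTP family targets, 6 were above 1 TPM and 4 below, with a median of 18.4 TPM. Il2 was the highest of these and Il6 the lowest. The lists share Il2, Tnf and Il6. These lists were drawn from several cell types, and the counts say which of the mRNAs were present in these cells, not which were being degraded.

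The targets whose elements are printed above were picked after their values were seen. Tnf, which holds both kinds of element, was at 519.7, 527, 499 and 503 TPM. Nfkbid, an atypical IκB gene, was at 468, 478, 448 and 451 TPM, and Icos, which encodes a costimulatory receptor, was at 127, 125, 124 and 130.1 TPM. None of these 3 had 1 library that stood far from the others. Csf2, the GM-CSF gene, was at 16.9, 13.4, 12.5 and 20.9 TPM, a wider spread, with replicate 4 the highest. Over the 10 lists, counting each gene once, 81 of 94 genes were above 1 TPM, 12 were below and 1 was neither (11 below without Exosc6), beside 45.9% above and 51.5% below among all protein-coding genes. Their median was 72.0 TPM.

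**Figure D5:**
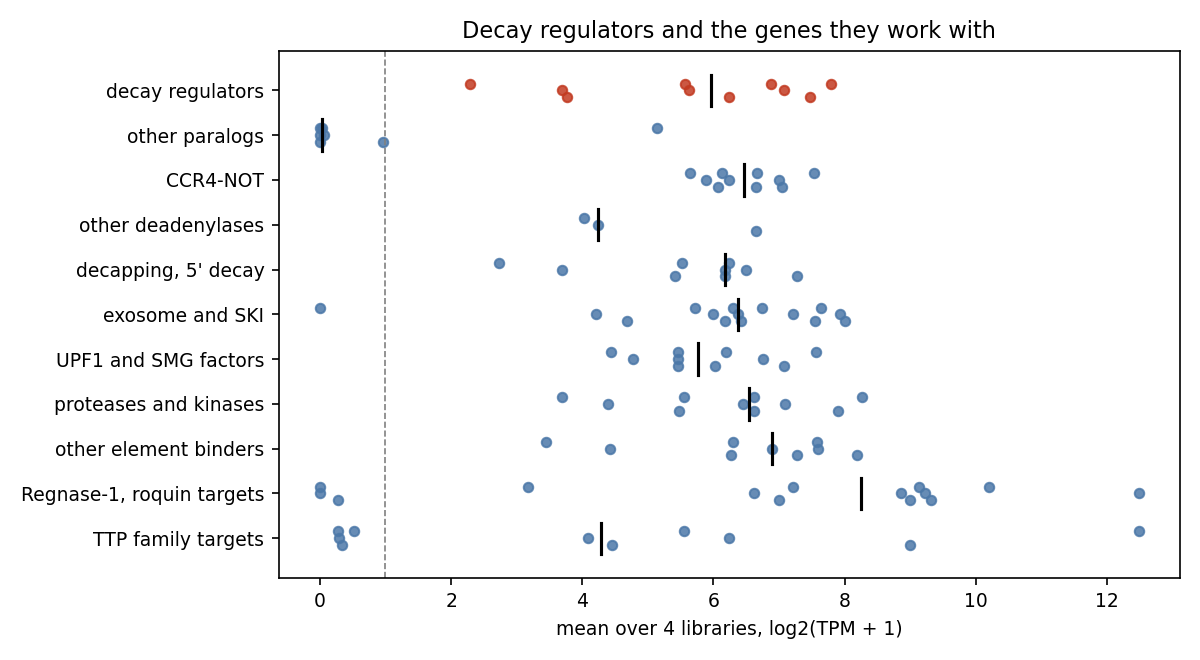
Mean level over 4 libraries, as log2(TPM + 1), of each decay regulator (red) and of each gene in 10 lists of related genes (blue), with a black bar at each list's median and a dashed line at 1 TPM. The further paralogs lie mostly near 0, the machinery lists to the right of the line with Exosc6 at 0, and the target lists spread from 0 to Il2 at 5738 TPM.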

How the data were processed

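Per the file headers, the deposited counts are whole-number read pairs per gene, made by featureCounts (1.4.6-p4) over the exons of GENCODE M13 on mm10, reverse-stranded, both ends mapped, multi-mapping reads left out. An aligner version was not given in the sources used here. The headers name a 24 hour sample, a time the labels do not give. The assay is labelled as of total RNA, while the name of the linked protocol is of poly(A)+ RNA. Symbols came from GENCODE M21 (50376 matched, 99.6%). At most 3.13% of the 50-base words of any of the 10 genes occurred in another gene on the same strand.

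TPM was computed from the deposited counts and merged exon lengths over all genes. Levels of 21764 protein-coding genes were tested against 1 TPM with edgeR 4.0.16 (R 4.3.3), as a quasi-likelihood F test of the intercept, two-sided, Benjamini-Hochberg adjusted, with the steps run singly because the function takes no design of 1 column. The p-values borrow dispersion from all genes. Variation was tested one-sided by negative binomial deviance, with TMM, for genes averaging 10 or more counts. Alternatives used DESeq2 1.42.0, limma 3.58.1, other scalings, filters, pseudocounts, levels and lengths. Counts of 19332509 to 48558772 per library set the precision, and floors use 3 counts.

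The members, gene lists and tests were chosen with earlier results of these data known. The genes named are the 10 members, all further paralogs, the highest and lowest gene of each list, and the 3 genes nearest to the member with the smallest variation p. All other genes named, cell type and sex-linked markers included, and the sequences printed were chosen after their values were seen.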

Additional observations from a re-analysis of the deposited data

Results flagged for a closer look

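In each of 51 groups of 4 library values, the gap between the most extreme library and its nearest neighbour was divided by the whole range, and 6 exceeded Dixon's 95% critical value for 4 samples. Chance flags about 1 in 20 such groups. For Zc3h12d the ratio was 0.834 and for N4bp1 0.903, and in both replicate 2, the shallowest library, was the high one. For Cnot9 it was 0.841, with replicate 1 high, and for Ddx6 0.855, with replicate 4 low. Zfp36l3 and Nynrin had a ratio of 1 because a single library held all of their counts, 2 and 1.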

How the results depend on the processing

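All 10 genes stayed above 1 TPM under every test, scaling, tested level (0.5 and 2 TPM), filter and set of libraries tried, and 386 of the recomputed values stayed within their limits, with no reversal. Of the list genes, 7 were below 1 TPM with DESeq2, which gives no p-value to the 5 genes without counts. With a minimum mean of 10 counts 0 were below, since that filter removes all 12 list genes called below in the main test. With 1 transcript length per gene, added after seeing the data, mean TPM was 153 for Zc3h12d, 122 for Zfp36l1, 97.0 for Zc3h12a, 93.4 for Elavl1 and 80.6 for Zfp36l2. It was 41.6 for Zfp36, 33.1 for Rc3h1, 18.4 for Rc3h2, 16.5 for N4bp1 and 2.72 for Zc3h12c. The lengths of Zc3h12d, Zfp36l1 and Zfp36l2 did not change, so their values moved only with the total over all genes. For the other members their own length changed as well. Family shares were then 17.0% for Zfp36, 49.9% for Zfp36l1, 33.1% for Zfp36l2, 64.3% for Rc3h1 and 35.7% for Rc3h2. Over protein-coding genes alone, which leaves a smaller total, Zfp36l1 was at 182.9, Zfp36l2 at 121 and Elavl1 at 77.8 TPM. With counts not divided by length, shares were 15.2% for Zfp36, 47.6% for Zfp36l1, 37.2% for Zfp36l2, 29.3% for Zc3h12a, 2.02% for Zc3h12c, 68.7% for Zc3h12d, 69.2% for Rc3h1 and 30.8% for Rc3h2. Depth limits the values of genes with few counts, such as the unexpressed paralogs.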
